A study of Mus musculus with 6 samples.

Results

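The 10 nuclear genes studied here encode chaperones and proteases of the mitochondrion, and they were followed in bone marrow–derived macrophages (BMDMs) with and without Drp1, the GTPase that divides mitochondria. The 10 genes were chosen by name for their textbook roles, with earlier results of these data known, out of 36137 genes matched in the deposited tables, and all 10 were among the 18506 genes tested. They comprise 5 chaperone genes, Hspa9, Dnaja3, Hspd1, Hspe1 and Trap1, and 5 protease genes, Lonp1, Clpp, Clpx, Yme1l1 and Afg3l2. Bone marrow came from LysM-Cre+/- Drp1+/+ mice (WT) and from LysM-Cre+/- Drp1 fl/fl mice (MɸDrp1KO, here Drp1KO), aged 8 to 12 weeks and of both sexes, so that both groups carry Cre. Cre is driven by the lysozyme M promoter, which is active in the myeloid lineage as a whole and not only in macrophages. Marrow of 2 mice per genotype was pooled, cells were differentiated for 7 days with L929 medium, and BMDMs of both genotypes were exposed for 8 hours to hypoxia with serum starvation (HSS), a culture model of ischemia, at 2.1% oxygen. There were 3 libraries per genotype and none from cells outside HSS, so the values compare genotypes under HSS and not HSS with rest. The labels call the libraries of a genotype biological replicates, but whether each came from a separate pool of marrow is not stated, so p-values measure the spread between these libraries.

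Most mitochondrial proteins are made in the cytosol and enter the organelle unfolded. Hspa9 (mortalin, the mitochondrial Hsp70) pulls them in and folds them with its J-protein partner Dnaja3, and Hspd1 (Hsp60) with its lid Hspe1 (Hsp10) forms the folding chamber of the matrix. Trap1 is the mitochondrial Hsp90. Lonp1 and the ClpXP complex, in which the Clpx ATPase feeds the Clpp peptidase, degrade damaged matrix proteins, and Yme1l1 and Afg3l2 are membrane-bound AAA proteases, the first facing the intermembrane space and the second facing the matrix. Several of these genes are standard readouts of the mitochondrial unfolded protein response, in which stress on protein folding in the organelle raises chaperone and protease transcripts in the nucleus.

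Depth ran from 24269850 to 28650715 estimated reads in WT and from 23389488 to 32231206 in Drp1KO libraries, and all 8 macrophage markers were detected, with sums of 13412 to 14811 CPM (counts scaled to library size) in WT and 11993 to 14417 CPM in Drp1KO libraries. Of these, 3 differed between genotypes (adjusted p, edgeR), Csf1r (log2 fold change -0.52, 0.0340) and Mertk (-0.52, 0.0236) being lower and Fcgr1 (1.34, 0.000322) higher in Drp1KO. Of 7 neutrophil markers, 5 passed the filter and all 5 had higher values in Drp1KO; their sums were 5.95 to 18.6 CPM in WT and 16.4 to 41.2 CPM in Drp1KO libraries, with Ly6g and Elane below the filter. In edgeR 0 of the 5 passed (3 at an unadjusted p under 0.05, against 16.4% of all genes), DESeq2 called S100a8 (8.80% of all genes were called) and limma-voom 0, and in the fit with the replicate number as a block, described below, S100a8 (adjusted p = 0.00145), S100a9 (7.85e-05) and Ltf (0.0194) were called higher, against 6.73% of all genes. The part of the markers of either cell type in the results below was not tested. Dnm1l, which encodes Drp1, had 72.7, 69.9 and 75.1 CPM in WT and 58.7, 60.7 and 66.3 CPM in Drp1KO libraries, groups that did not overlap but differed by only -0.23 on the log2 scale (SE 0.0921, adjusted p = 0.248, edgeR quasi-likelihood test with Benjamini-Hochberg adjustment). The deposited counts are per whole transcript, so they do not read the deleted part of the gene and are no measure of how complete the deletion was. With adjusted p under 0.05, 3.36% of all genes tested differed between genotypes (621 of 18506), of which 424 were higher and 197 lower in Drp1KO BMDMs.

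Promoter sequence is shown for the pair Hspd1 and Hspe1, the genes of the folding chamber. It is also shown for Trap1 and Lonp1, the members with lower values in every Drp1KO library. Hspd1 and Hspe1 lie head to head on chromosome 1, with canonical start sites 108 bases apart on opposite strands (GRCm39, GENCODE annotation). The 107 bases between them, chr1:55127184-55127290, hold 1 match to GAANNTTC, the core of the heat shock element that binds Hsf1. The annotated span of the Hspe1 gene begins inside this stretch, at 55127260. Below, capitals mark that match in the 30 bases around it, and the windows upstream of Lonp1 and Trap1 hold no capitals because they hold neither of the first 2 motifs searched. The Lonp1 stretch shown does not adjoin the canonical start at position 56933931, because it was kept clear of other transcript models. Sequences are 5′ to 3′ on the strand named.
Hspd1-Hspe1, chr1:55127212-55127241 (+): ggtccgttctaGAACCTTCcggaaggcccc
Lonp1, chr17:56933981-56934181 (-): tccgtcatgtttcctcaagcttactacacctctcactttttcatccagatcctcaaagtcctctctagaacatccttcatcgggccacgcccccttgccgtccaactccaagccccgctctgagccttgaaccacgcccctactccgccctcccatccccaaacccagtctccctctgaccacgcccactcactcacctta
Trap1, chr16:3895717-3895966 (-): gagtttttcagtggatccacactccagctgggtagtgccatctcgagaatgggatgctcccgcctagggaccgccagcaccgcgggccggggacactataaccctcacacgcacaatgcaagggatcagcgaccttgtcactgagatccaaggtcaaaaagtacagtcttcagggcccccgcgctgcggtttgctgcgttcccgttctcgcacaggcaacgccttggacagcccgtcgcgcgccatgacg

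The 3 motifs were searched on both strands in the window from 250 bases before to 50 bases after the canonical start of 21757 protein-coding genes. GAANNTTC was present in 7.41% of all promoters and in 2 of the 10 members, Hspd1 and Hspe1, which share the one match. TGATGNAAT, the form of the C/EBP-ATF response element linked to the mitochondrial unfolded protein response, was present in 0.896% of promoters and in 0 of 10 members. CCAAT, the site of NF-Y, was present in 39.9% of promoters and in 7 of 10 members, the exceptions being Hspe1, Trap1 and Lonp1. CCAAT was not found in the sequences shown, so no 2 motifs overlap there. A match is a description of letters and was not tested as a binding site.

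In WT BMDMs the members spanned a more than 10-fold range of level per length. On the TPM scale (a transcript's share of its library, corrected for length), Hspa9 had the highest WT level, 386, 342 and 330 TPM in libraries 1 to 3, and Clpp the lowest, 14.7, 15.3 and 17.6 TPM. Hspe1 followed Hspa9 at 116 ± 13.7 TPM (SD, n = 3), then Hspd1 at 73.9 ± 10.0, Afg3l2 at 58.6 ± 2.20, Yme1l1 at 54.8 ± 6.66, Trap1 at 35.6 ± 1.78, Lonp1 at 29.5 ± 1.42, Dnaja3 at 27.5 ± 2.14 and Clpx at 24.3 ± 3.13 TPM. Neighbours in this order whose WT libraries overlapped were Afg3l2 with Yme1l1, Lonp1 with Dnaja3, and Dnaja3 with Clpx, whereas every other pair of neighbours was apart in all 3 libraries. Among proteases, then, the membrane-bound Afg3l2 and Yme1l1 had higher transcript levels per length than the matrix enzymes Lonp1, Clpx and Clpp.

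**Figure D1:**
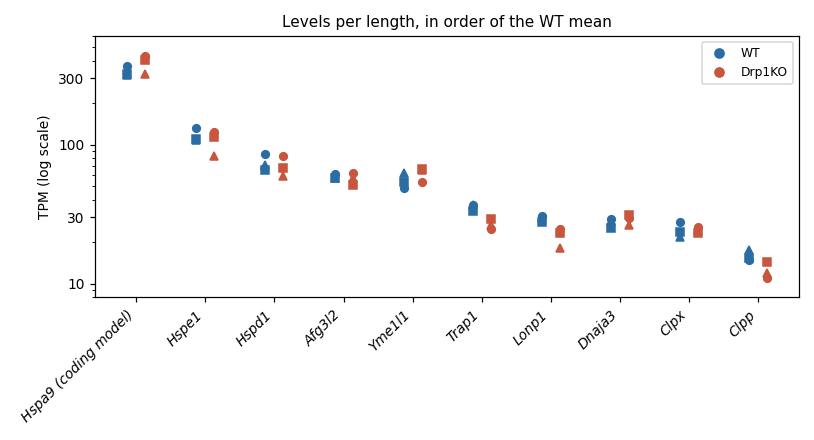
Levels per length (TPM, log axis) of each gene in WT (blue) and Drp1KO (red) libraries, ordered by the WT mean; circles, squares and triangles are libraries 1, 2 and 3, and Hspa9 is shown by its protein-coding transcript. That transcript sits at 314 to 368 TPM in WT and 319 to 430 TPM in Drp1KO libraries, above every other gene, and Clpp at 11.0 to 17.6 TPM is below every other gene.

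Comparing genotypes on gene-level counts, 0 of the 10 genes passed an adjusted p of 0.05, against 3.36% of all genes tested. Without adjustment, 3 of the 10 had p under 0.05, Trap1, Lonp1 and Yme1l1, against 16.4% of all genes. Values were higher in Drp1KO for 6 genes and lower for 4, and the median of the 10 log2 fold changes was 0.02, beside 0.0046 for the whole set of genes tested (0.02 for the chaperones and 0.02 for the proteases). The list thus had no common direction, and its members differed among themselves from -0.33 for Lonp1 to 0.33 for Hspa9. The study's criteria were a fold change of more than 25%, higher genotype over lower, with unadjusted p under 0.05. For a gene lower in Drp1KO the fold change is thus WT over Drp1KO. By these criteria 1 of 10 genes passed, Lonp1, which was lower in Drp1KO. Of all genes 12.7% passed them and 5.48% did so with lower values. DESeq2 and limma-voom likewise gave 0 calls among the 10, against 8.80% and 3.37% of all genes. Counts scaled for transcript length gave 1, Hspa9 (2.49% of all genes), and 0 once a short transcript model described below was left out of Hspa9.

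Libraries with the same replicate number deviated together across genes, so a fit with the number as a block was also made. The study does not state such pairs. WT library 2 correlated more with Drp1KO library 3 (0.326) than with Drp1KO library 2 (0.204). There 2212 genes (12.0%) passed, and 3 of the 10 members: Hspa9 was higher (6.73% of all genes were) and Trap1 and Lonp1 were lower in Drp1KO (5.22% were). Leaving out a pair changed these calls. With both libraries numbered 1 left out the members called were Hspa9, Lonp1 and Yme1l1 (15.5% of all genes were called), and with those numbered 2 or those numbered 3 left out 0 were called, where the share of all genes called was also smaller, at 6.57% and 4.72%.

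**Figure D2:**
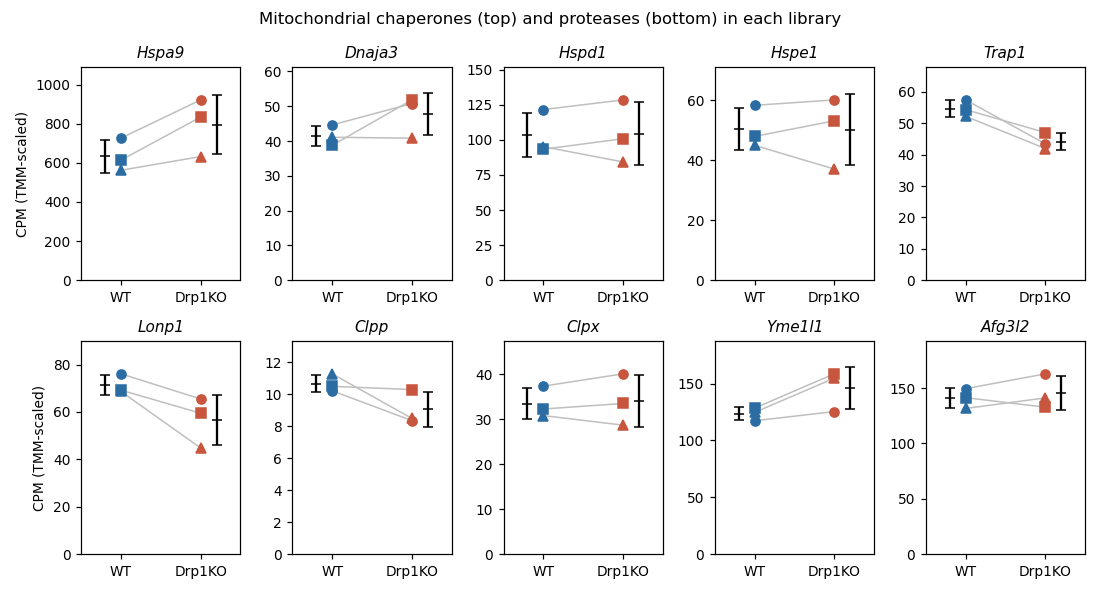
CPM of each gene in WT (blue) and Drp1KO (red) libraries, chaperones above and proteases below; circles, squares and triangles are libraries 1, 2 and 3, grey lines join libraries of the same number, and bars give the mean ± SD of 3 libraries. Trap1 and Lonp1 were lower in each Drp1KO library than in any WT library, while the groups of the other 8 genes overlapped.

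Hspa9, the import motor and central chaperone of the matrix (chr18:35070465-35087750), had 727, 614 and 562 CPM in WT and 922, 834 and 632 CPM in Drp1KO libraries 1 to 3. Each Drp1KO library was above the WT library of its number, but Drp1KO library 3 lay below WT library 1, so that the groups overlapped. The log2 fold change was 0.33 (SE 0.150, adjusted p = 0.312, edgeR) without the block and 0.32 (SE 0.0762, adjusted p = 0.0212) with it. Without the block, the Hspa9 value was 0.20 with Drp1KO library 1 left out and 0.47 with Drp1KO library 3 left out. Its partner Dnaja3 (chr16:4457853-4528239), which brings clients to Hspa9 and stimulates its ATPase, had 44.6, 38.8 and 41.1 CPM in WT and 50.8, 51.8 and 40.8 CPM in Drp1KO libraries. In all, 2 of the 3 Drp1KO libraries were above all WT libraries and the third was within their range, with a log2 fold change of 0.20 (SE 0.117, adjusted p = 0.445, edgeR; 0.216 with the block). Without Drp1KO library 3 the log2 fold change was 0.31, and with the block and the libraries numbered 2 left out it was 0.089.

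The folding chamber genes did not separate the genotypes. Hspd1 (chr1:55116989-55171038) had 122, 93.3 and 95.1 CPM in WT and 128, 101 and 84.3 CPM in Drp1KO libraries, and Hspe1 (chr1:55127260-55130476) had 58.3, 47.9 and 44.9 CPM in WT and 60.1, 53.1 and 37.1 CPM in Drp1KO libraries. For both genes library 1 was the highest of each genotype and Drp1KO library 3 the lowest of all 6. The same held for Clpx and Lonp1, so this pattern was not particular to the pair. The log2 fold changes were 0.02 (SE 0.159, adjusted p = 0.985, edgeR) for Hspd1 and -0.01 (SE 0.170, adjusted p = 0.990) for Hspe1, with the largest SEs among the 10 genes. The ratio of Hspe1 to Hspd1, lid to barrel on the TPM scale, was 1.55, 1.66 and 1.51 in WT and 1.48, 1.68 and 1.39 in Drp1KO libraries. It held within 1.39 to 1.68 across the 6 libraries, and the log2 ratio differed between genotypes by -0.06 (exact permutation test, two-sided p = 0.5; 3 against 3 libraries cannot go below 0.1).

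Trap1, the mitochondrial Hsp90 (chr16:3856215-3895716), had 57.4, 54.3 and 52.2 CPM in WT and 43.4, 47.0 and 42.0 CPM in Drp1KO libraries. The highest Drp1KO library was below the lowest WT library. The log2 fold change was -0.31 (SE 0.0948, adjusted p = 0.124, edgeR), a change of -19.2% in the fitted level, and passed with the replicate block (SE 0.0783, adjusted p = 0.0279). Trap1 and Dnaja3 lie on chromosome 16, as does Dnm1l, at 12.2 and 11.6 megabases from it. Strain sequence carried along with the floxed allele and the loss of Drp1 itself cannot be told apart for genes of that region.

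Lonp1, the ATP-dependent protease that clears oxidized matrix proteins (chr17:56921291-56933980), had 76.1, 69.2 and 68.7 CPM in WT and 65.5, 59.5 and 44.8 CPM in Drp1KO libraries. Here too the groups did not overlap, and Drp1KO library 3 stood lowest. The log2 fold change was -0.33 (SE 0.135, unadjusted p = 0.0328, adjusted p = 0.249, edgeR), a change of -20.7%, and -0.35 (SE 0.0927, adjusted p = 0.0336) with the replicate block. Without Drp1KO library 3 the log2 fold change was -0.19 and without WT library 1 it was -0.29, and in both cases Lonp1 no longer met the study's fold criterion and Hspa9, with higher values, was the 1 member that met both criteria. Trap1 and Lonp1 were thus the 2 of 10 members whose groups did not overlap, both lower; over all genes tested 21.9% did not overlap and 10.3% did so with lower Drp1KO values.

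Clpp, the peptidase of ClpXP (chr17:57296971-57303369), was the least abundant member, at 10.2, 10.5 and 11.3 CPM in WT and 8.35, 10.3 and 8.50 CPM in Drp1KO libraries. Each Drp1KO library was below its WT counterpart, but Drp1KO library 2 lay within the WT range (log2 fold change -0.24, SE 0.139, adjusted p = 0.459, edgeR; 0.246 with the block). Clpx, its unfoldase (chr9:65201540-65239568), had 37.3, 32.2 and 30.8 CPM in WT and 40.0, 33.5 and 28.6 CPM in Drp1KO libraries, with a log2 fold change of 0.02 (SE 0.137, adjusted p = 0.972). The Drp1KO libraries spanned the WT ones on both sides. The ratio of Clpx to Clpp on the TPM scale was 1.88, 1.54 and 1.22 in WT and 2.35, 1.64 and 2.04 in Drp1KO libraries, higher in each Drp1KO library than in the WT library of its number but overlapping between groups. The difference in log2 ratio was 0.38 (exact permutation test, two-sided p = 0.2), and 0.22 without WT library 3.

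Yme1l1, the inner-membrane protease that processes Opa1 and so bears on mitochondrial fusion (chr2:23046034-23089281), had 117, 128 and 125 CPM in WT and 125, 159 and 155 CPM in Drp1KO libraries. Each Drp1KO library was above its WT counterpart and 2 of the 3 were above all WT libraries. The log2 fold change was 0.24 (SE 0.108, adjusted p = 0.297, edgeR; 0.0688 with the block). Afg3l2, the matrix-facing counterpart (chr18:67535762-67582318), had 149, 141 and 132 CPM in WT and 163, 133 and 141 CPM in Drp1KO libraries, with a log2 fold change of 0.05 (SE 0.104, adjusted p = 0.898). Its values interleaved between genotypes.

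**Figure D3:**
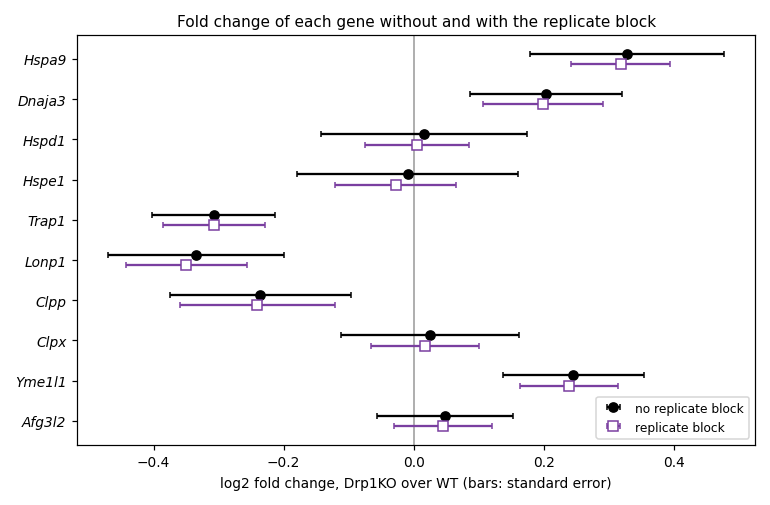
Log2 fold change of each gene, Drp1KO over WT, with its SE as bars, from the fit without the replicate block (filled circles) and with it (open squares). The point estimates differ by at most a few hundredths between fits, from -0.33 for Lonp1 to 0.33 for Hspa9 without the block, and the bars are shorter with the block.

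Within Hspa9, one transcript model differed far more than the gene. The protein-coding model of 17 exons (Hspa9-201) held 99.2% ± 0.172 of the gene's counts in WT and 96.2% ± 0.281 in Drp1KO libraries (SD, n = 3). A model of 483 bases annotated as a retained intron (ENSMUST00000237289) held 0.280% ± 0.0730 in WT and 3.32% ± 0.196 in Drp1KO libraries. Its estimated counts were 38.2, 59.5 and 41.2 in WT and 627, 938 and 705 in Drp1KO libraries, which came to 1.67, 2.19 and 1.39 CPM and 28.6, 28.5 and 21.6 CPM. Every Drp1KO library was thus above every WT library by a wide margin. In a fit over 62020 transcripts, of which 0.332% passed, the log2 fold change was 3.90 (SE 0.240, adjusted p = 0.00918, edgeR), a 15.0-fold difference that ranked number 3 by p among all transcripts. Of 14775 retained-intron transcripts tested, 17 passed (0.115%), and of the 32 tested transcripts of the 10 members only this one did. With the replicate block 0 of 62020 transcripts passed (7231 had unadjusted p under 0.05) and the model had an adjusted p of 0.0799. Without Drp1KO library 2 its log2 fold change was 3.84 (adjusted p = 0.0775, edgeR). Over the left-out libraries its log2 fold change ran from 3.77 to 4.10. It was singled out after its values were seen.

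**Figure D4:**
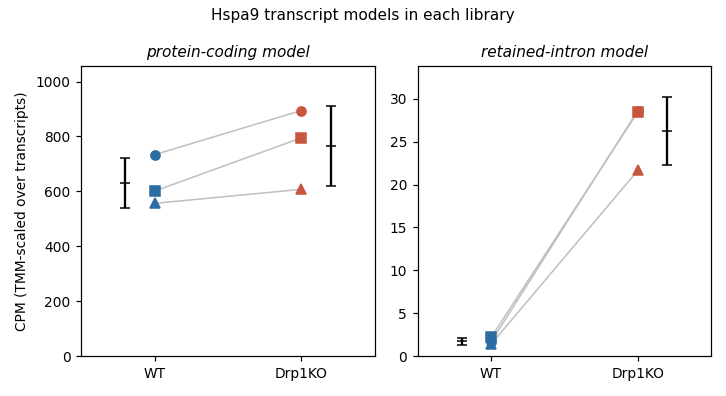
CPM of the protein-coding model and the 483-base retained-intron model of Hspa9 in WT (blue) and Drp1KO (red) libraries; circles, squares and triangles are libraries 1, 2 and 3, grey lines join libraries of the same number, and bars give the mean ± SD. The retained-intron model sits at 1.39 to 2.19 CPM in WT and at 21.6 to 28.6 CPM in Drp1KO libraries, while the groups overlap for the protein-coding model.

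The retained-intron model shares 315 of its bases with exons of the protein-coding one, and the other 168 (chr18:35084459-35084626) are the end of intron 3, just before exon 4. The other 3 retained-intron models of Hspa9 had adjusted p of 0.802 to 0.960 (edgeR). Over all genes, retained-intron models held 3.73% ± 0.321 of counts in WT and 3.77% ± 0.279 in Drp1KO libraries. An antisense long noncoding RNA on the opposite strand, Gm56507, covers 112 of the 168 intron bases; it has 0 entries in the deposited tables, and since the counting is not stated to use strand, reads from it and from Hspa9 cannot be told apart. The tables give 1 estimated count per model and no reads, so which of its bases carry the difference was not tested. With this model left out, the log2 fold change of the Hspa9 gene was 0.28, and with the replicate block 0.27 (adjusted p = 0.0415, edgeR). Because the model is short, it weighs more per read on the TPM scale, where it stood at 7.67 to 11.7 TPM in WT and 129 to 171 TPM in Drp1KO libraries. The TPM sum of Hspa9 was therefore 459 to 588 in Drp1KO against 330 to 386 in WT libraries, groups that did not overlap, whereas the protein-coding model alone overlapped at 319 to 430 and 314 to 368 TPM.

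Most other members were read through 1 transcript. The leading model held over 89% of the counts in every library for Hspd1, Hspe1, Trap1, Lonp1, Clpp, Clpx and Yme1l1. A retained-intron model of Afg3l2 held 10.1% ± 2.45 of its counts in WT and 12.0% ± 2.68 in Drp1KO libraries, and a second coding model of Dnaja3 held 16.6% ± 1.87 and 15.9% ± 2.13. The groups overlapped for both shares, and their transcript-level log2 fold changes were 0.30 (adjusted p = 0.707, edgeR) and 0.13 (adjusted p = 0.950). A nonsense-mediated decay model of Lonp1 held 5.34%, 8.41% and 7.04% of its counts in WT and 8.44%, 8.95% and 10.4% in Drp1KO libraries. These groups were narrowly apart, while the model's own log2 fold change was 0.08 (SE 0.226, adjusted p = 0.974, edgeR); it was named after its values were seen.

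Other genes of mitochondrial protein quality control, listed by role, did not pass in edgeR without the block either. Among 8 other chaperones and cofactors 3 were higher and 5 lower, with a median log2 fold change of -0.13 and 0 called. At an unadjusted p under 0.05 there were 2, against 16.4% of all genes. DESeq2 called 1, Dnajc19, against 8.80% of all genes, and limma-voom called 0. With the replicate block 2 of 8 passed, against 12.0% of all genes, in opposite directions: Dnajc15, a J-protein of the import motor, at 58.1 ± 4.41 CPM in WT and 76.8 ± 11.0 CPM in Drp1KO (adjusted p = 0.0163, edgeR), and Dnajc19, a related J-protein, at 18.5 ± 1.59 and 13.7 ± 1.63 CPM (adjusted p = 0.0325). Among 16 other proteases and peptidases, which include Spg7, the partner of Afg3l2, and Oma1, the stress-activated protease of Opa1, 10 were higher and 6 lower, with a median of 0.04 and 0 called in either fit. The 4 prohibitins and partners, scaffolds of the membrane proteases, had a median of -0.04 and 0 called in either fit. In both of these lists 0 genes had an unadjusted p under 0.05 in edgeR without the block, and DESeq2 and limma-voom called 0.

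Of 7 regulators of the mitochondrial stress response, 0 passed without the block (2 at an unadjusted p under 0.05, against 16.4% of all genes, and 0 called by DESeq2 or limma-voom) and 2 were called higher with it, against 6.73% of all genes. Atf4, the transcription factor of the integrated stress response, had 165 ± 35.2 CPM in WT and 239 ± 66.0 CPM in Drp1KO (log2 fold change 0.53, adjusted p = 0.218, edgeR; 0.00442 with the block), and Ddit3 (CHOP), which acts downstream of Atf4, had 77.0 ± 35.7 and 141 ± 54.8 CPM (0.87, adjusted p = 0.225; 0.00147 with the block). Atf5, the factor most tied to the mitochondrial unfolded protein response, had 96.4 ± 16.5 and 105 ± 29.1 CPM (0.12, adjusted p = 0.849; 0.697 with the block). Hsf1, which acts on heat shock elements, was at 6.56 ± 0.522 and 6.76 ± 1.44 CPM (adjusted p = 0.970).

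Chaperones of other compartments were set beside the members. Of 13 cytosolic heat shock genes 10 had lower values in Drp1KO, with a median log2 fold change of -0.12 and 0 called. At an unadjusted p under 0.05 there was 1, against 16.4% of all genes. With the block, by DESeq2 and by limma-voom 1 passed, against 12.0%, 8.80% and 3.37% of all genes. It was Hsp90ab1, the constitutive cytosolic Hsp90, at 1848 ± 165 CPM in WT and 1317 ± 169 CPM in Drp1KO (-0.49, adjusted p = 0.00149, edgeR with the block). Of 9 endoplasmic reticulum chaperones 7 had lower values, with a median of -0.13 and 0 called (5 at an unadjusted p under 0.05, against 16.4% of all genes, 2 called by DESeq2, Hsp90b1 and Dnajb9, and 0 by limma-voom). With the block 3 of 9 passed, against 12.0% of all genes, Dnajb9 higher and Hsp90b1 and Canx lower. Hsp90b1, the Hsp90 of that compartment, had a log2 fold change of -0.37 (adjusted p = 0.0126 with the block), so that Trap1, Hsp90ab1 and Hsp90b1, Hsp90 genes of the mitochondrion, cytosol and endoplasmic reticulum, had lower values in Drp1KO and passed with the block but not without it in edgeR, while Hsp90aa1, the inducible cytosolic form, had -0.12 and passed in neither fit (adjusted p = 0.336 with the block). This grouping was made after the values were seen, and 5.22% of all genes were called lower with the block. The 13 mitochondrially encoded mRNAs, which are made inside the organelle, had lower values in 12 cases with a median of -0.46 and 0 called (3 at an unadjusted p under 0.05, 1 called by DESeq2, mt-Nd6, and 0 by limma-voom); 3 were called lower with the block (5.22% of all genes were), mt-Nd5, mt-Nd6 and mt-Co2. WT library 1 stood apart here, with 0.297% of its counts on these mRNAs against 0.690% and 0.597% in WT libraries 2 and 3 and 0.342% to 0.541% in Drp1KO libraries. It lay below every Drp1KO library for 11 of the 13, so any lower Drp1KO mean among those 11 rests on WT libraries 2 and 3. For the other 2, mt-Nd6 and mt-Co2, WT library 1 was above every Drp1KO library, by little for mt-Co2 (97.2 against 97.0 CPM at most), and the groups did not overlap.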

How the data were processed

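RNA-seq of 3 WT and 3 Drp1KO BMDM libraries was analysed. The authors quantified reads with kallisto 0.46.1 against Ensembl cDNA of GRCm39 and deposited an estimated count and a TPM value per transcript and library. The sample labels and the paper differ in the oxygen level, the share of L929 medium and the RNA kit. The 10 genes and the gene lists were chosen with earlier results of these data known, and all 10 genes are named; genes of other lists were named after seeing their blocked result.

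Of 116873 transcripts, 99.4% had an entry in GENCODE (GRCm39); the rest carried 0.575% of a library's counts or less and were not used. Estimated counts were summed per gene and rounded. Genes with at least 10 counts in total were tested with edgeR 4.0.16 in R 4.3.3 (TMM, quasi-likelihood test, no covariate, Benjamini-Hochberg adjustment over all genes), after a check on simulated data. SEs are the log2 fold change over the square root of F. CPM are TMM-scaled. The depth puts 3 counts at 0.0931 to 0.128 CPM, well under every member, and intervals between libraries are not counting error alone.

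The labels number the libraries 1 to 3 in each group. Deviations from the group mean correlated at 0.510, 0.204 and 0.298 for libraries 1, 2 and 3 (12248 genes), each over 0.1, and on that ground equal numbers were treated as pairs; the study does not state this. WT library 2 and Drp1KO library 3 correlated at 0.326, more than either did with the library of its own number. All 6 libraries differed beyond sampling noise. Settings also tried were DESeq2 1.42.0, limma-voom 3.58.1, other scalings and filters, length-scaled counts, added pseudogene copies, the replicate block and leaving out each library.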

Additional observations from a re-analysis of the deposited data

How the results depend on the processing

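The count of 0 of 10 members called held under DESeq2, limma-voom, both other scalings, both other filters, added pseudogene copies and each left-out library. It was 1 with length-scaled counts (Hspa9, log2 fold change 0.72, adjusted p = 0.0294), 0 again there without its retained-intron model, and 3 with the replicate block, with or without that model. With the block and both libraries of 1 number left out it was 0 to 3. Calls over all genes were 621, but 1065 with no filter beyond 1 count, 1155 with DESeq2, 181 to 904 with a library left out, 2212 with the replicate block (2212 without the model) and 2769, 1150 and 821 with the block and number 1, 2 or 3 left out. Members past the study's criteria were 1, but 3 with length-scaled counts (2 without the model), 1 to 2 with a library left out and 1 to 3 with the block and 1 number left out; the 1 gene was Hspa9, higher, and not Lonp1 without WT library 1, without Drp1KO library 3, and with the block without the libraries numbered 3. The members' median log2 fold change ran from -0.14 (without Drp1KO library 1) to 0.15 (without Drp1KO library 3).

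Hspa9, Dnaja3, Trap1, Lonp1, Clpp and Yme1l1 kept their direction under all 21 alternatives. Those near 0 did not, with a library left out: Hspd1 had -0.07, -0.06 and -0.17 without WT library 2, WT library 3 and Drp1KO library 1, Hspe1 0.10 and 0.17 without WT library 1 and Drp1KO library 3, Clpx -0.02, -0.05 and -0.12 without WT library 2, WT library 3 and Drp1KO library 1, and Afg3l2 -0.01 and -0.050 without WT library 3 and Drp1KO library 1 (ranges over left-out libraries -0.17 to 0.15 for Hspd1, -0.17 to 0.17 for Hspe1, -0.12 to 0.14 for Clpx and -0.050 to 0.12 for Afg3l2). With the block and number 1, 2 or 3 left out, Hspd1 had -0.034 (1) and -0.046 (2), Hspe1 0.087 (3) and Clpx -0.027 (1). The Hspe1 to Hspd1 log2 ratio difference was 0.0015 without Drp1KO library 3 and -0.13 without Drp1KO library 2. The cause was not tested. Gene-level log2 fold changes of Hspa9 without the block were 0.20 to 0.47 with a library left out. The Clpx to Clpp difference in log2 ratio was 0.22 to 0.53 with a library left out. The replicate block with all libraries changed no call among the members other than those of Hspa9, Trap1 and Lonp1, and Yme1l1 was also called there without the libraries numbered 1 (adjusted p = 0.0150, edgeR). The small number of libraries limits the precision.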
